A study of Mus musculus with 6 samples.

Results

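The 39 genes described here encode the machinery that copies DNA in S phase, and they were taken by name: the helicase and its loaders, the polymerases, the sliding clamp, the enzymes that make deoxynucleotides, and the E2F and cyclin E regulators that switch them on. A gene entered if its log2 value was at least 3.3 (the log2 of 10) in 3 or more of the 6 libraries. All 39 passed, of 15059 gene symbols that did so among 47593 listed. The members closest to that limit were Fen1, at 3.57 to 3.62, and E2f2, at 3.72 to 3.76, and no member fell below it.

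The libraries came from primary neurons of the hippocampus of wild-type (WT) mice, grown in Neurobasal with B27 and GlutaMAX. At culture day 10 they received apolipoprotein E (apoE) particles at 6 µg/mL for 24 h, of astrocytic origin in 3 samples and of microglial origin in the other 3, and total RNA was sequenced. Both groups thus share genotype, dose and time, and neurons without particles are not analysed here, so every direction is microglial against astrocytic apoE. The labels give neither age nor sex of the animals, and nothing in them states that replicates were separate cultures, so p-values measure only the spread between these samples, which may be technical.

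DNA replication starts when the MCM complex, a ring-shaped helicase, is loaded on origins by CDC6 and CDT1 and then switched on by CDC45, the GINS complex and MCM10. Primase and the polymerases follow the opened fork, PCNA holds the polymerases on the template, and the genes for most of these proteins are transcribed together at the G1 to S transition under the E2F factors. Mature neurons have left the cell cycle, whereas glia and neural progenitors, which such cultures also hold, can divide. In RNA from whole cultures, fewer dividing cells and less RNA per cell cannot be told apart.

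The promoter stretches below were chosen because they hold a match to the E2F motif and lie outside every annotated exon. The motif was searched on both strands as TTTCCCGC, TTTCGCGC, TTTGCCGC or TTTGGCGC, from 250 bases before to 50 after each start listed for a gene. Of the 31 members with a promoter in the RefSeq table (build GRCm38.p6), 13 (41.9%) held a match, beside 496 of 10796 (4.59%) among the genes tested that have one there and 704 of 27025 (2.60%) in the whole table. Each line reads along the gene's strand, with the match in capitals.
Mcm5 (chr8:75109259-75109508, plus strand): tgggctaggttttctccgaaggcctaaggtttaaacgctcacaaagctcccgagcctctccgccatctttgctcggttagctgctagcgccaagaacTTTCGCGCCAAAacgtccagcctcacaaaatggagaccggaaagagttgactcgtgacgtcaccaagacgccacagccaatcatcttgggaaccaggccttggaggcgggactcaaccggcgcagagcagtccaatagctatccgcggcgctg
Mcm6 (chr1:128359706-128359955, minus strand): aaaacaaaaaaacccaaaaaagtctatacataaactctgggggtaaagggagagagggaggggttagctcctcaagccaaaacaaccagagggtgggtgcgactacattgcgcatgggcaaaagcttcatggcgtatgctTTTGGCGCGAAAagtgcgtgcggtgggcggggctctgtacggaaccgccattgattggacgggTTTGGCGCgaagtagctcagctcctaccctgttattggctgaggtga
Uhrf1 (chr17:56304098-56304165, plus strand): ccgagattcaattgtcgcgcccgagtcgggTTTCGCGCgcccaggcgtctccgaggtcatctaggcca
Pola1 (chrX:93632256-93632323, minus strand): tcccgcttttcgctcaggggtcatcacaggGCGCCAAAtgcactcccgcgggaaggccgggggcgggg
Cdc6 (chr11:98907983-98908050, plus strand): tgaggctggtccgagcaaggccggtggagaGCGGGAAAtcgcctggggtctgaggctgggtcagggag
In Mcm5 the capitals are 2 overlapping matches, and in Mcm6 they are an overlapping pair followed by another match 47 bases before the start. The 13 genes held 19 matches, 11 of them before the start. The Uhrf1 and Cdc6 stretches precede a later RefSeq start and lie inside the annotated genes, which begin at 56303321 and 98907801. The Uhrf1 window around the annotated start held no E2F match. A match describes these letters and does not show that a factor bound there. The members Mcm4, Gins1, Gins2, Gins4, Prim2, Pole, Rfc2 and Ccne2 had no entry.

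With microglial apoE, 24 of the 39 replication genes fell and 0 rose in limma (adjusted p under 0.05 over all genes tested). At an unadjusted p under 0.05 the counts were 28 lower and 1 higher. Over all 15059 genes tested, 11.8% were called lower and 13.0% higher (24.8% in either direction). The falls were small: the median log2 difference of the 39 genes was -0.11, beside -0.00057 over all genes tested, and 20 of the 24 called genes fell by less than 0.20. Moving the common scale of the libraries changes the balance of all calls. Of all calls, 47.6% were lower on the deposited scale, 65.2% once the libraries were set to a common median and 34.4% once they were set to a common sum of antilogs (2 to the power of the value). The last 2 scales gave 28 and 22 members called lower. Of the 24, 20 were called lower under every alternative tried, and the exceptions were Cdc6, Gins4, Prim1 and E2f1.

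**Figure D1:**
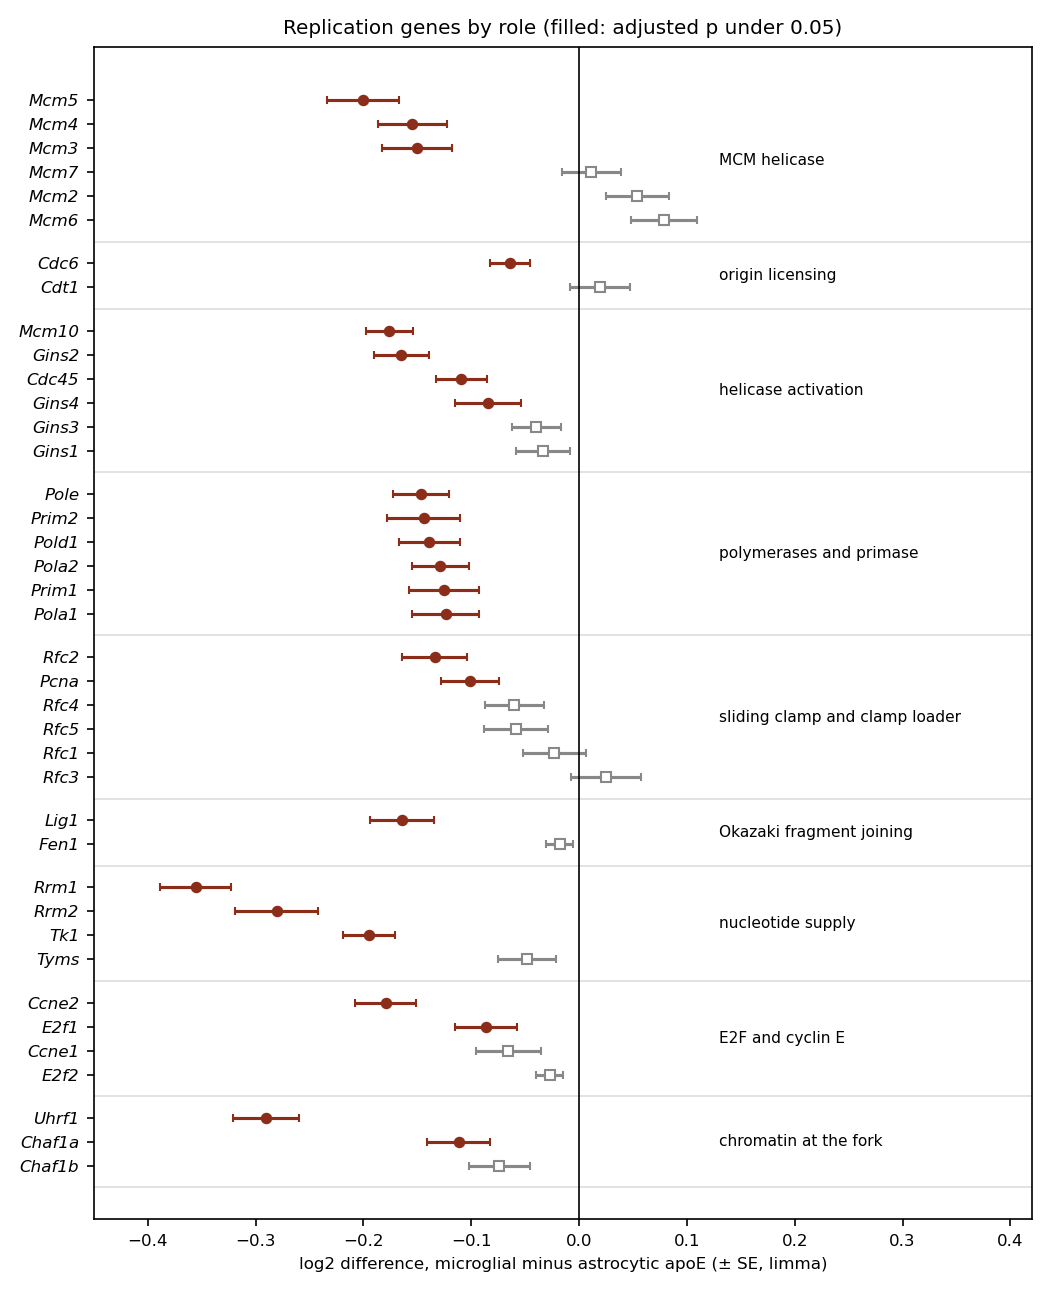
Log2 difference (microglial minus astrocytic apoE) with its limma standard error for each of the 39 genes, grouped by role; filled circles passed an adjusted p of 0.05 and open squares did not. Filled circles number 24, all left of 0, and the 5 genes right of 0 are open.

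The genes that supply deoxynucleotides had the lowest median of the roles (-0.24), with 3 of 4 called lower, and Rrm1 had the lowest difference of all members. Rrm1, the large subunit of ribonucleotide reductase (GRCm38 chromosome 7, 102441695 to 102469771), had log2 values of 9.74, 9.72 and 9.64 with astrocytic apoE and of 9.35, 9.29 and 9.38 with microglial apoE. The groups did not overlap, and Rrm1 fell by 21.8% (log2 difference -0.36 ± 0.033 SE, adjusted p = 6.3e-09), the 77th lowest difference of all genes tested. Its partner Rrm2 (chromosome 12, 24708241 to 24714146), the subunit that carries the radical and is made in S phase, stood at 8.79, 8.86 and 8.98 against 8.61, 8.62 and 8.57. The astrocytic libraries of Rrm2 had the widest spread of any member (SD 0.0955, n = 3), still without overlap, and the difference was -0.28 ± 0.038 SE (adjusted p = 9.9e-06). Tk1, the thymidine kinase of the salvage pathway, stood at 6.07, 6.10 and 6.14 against 5.93, 5.90 and 5.90 (log2 difference -0.19 ± 0.024 SE, adjusted p = 8.2e-07), again without overlap. Thymidylate synthase, Tyms, which makes the same nucleotide de novo, gave 6.96, 6.96 and 6.91 against 6.88, 6.88 and 6.92. Here the groups overlapped and the difference of -0.05 ± 0.027 SE did not pass (adjusted p = 0.21).

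The genes of the MCM helicase did not move together. Its 6 subunits form a single ring, yet Mcm3, Mcm4 and Mcm5 fell by 9.87%, 10.2% and 13.0%, whereas Mcm2, Mcm6 and Mcm7 did not pass. Mcm5 (chromosome 8, 75109569 to 75128439) had values of 8.17, 8.20 and 8.30 with astrocytic apoE and 8.05, 8.01 and 8.02 with microglial apoE. Every microglial library was lower, with a difference of -0.20 ± 0.034 SE (adjusted p = 6.6e-05). Mcm4 stood at 8.83, 8.82 and 8.83 against 8.68, 8.72 and 8.62 (-0.15 ± 0.032 SE, adjusted p = 6.8e-04), and Mcm3 at 8.45, 8.37 and 8.39 against 8.29, 8.27 and 8.21 (-0.15 ± 0.032 SE, adjusted p = 0.0012).

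In the other subunits the order of the groups was turned or lost. Mcm6 (chromosome 1, 128331590 to 128359664) stood at 9.59, 9.66 and 9.57 with astrocytic apoE and at 9.69, 9.70 and 9.67 with microglial apoE, higher in each library, but the difference of 0.08 ± 0.031 SE did not pass (adjusted p = 0.062). It passed at a common antilog sum (adjusted p = 0.029) and without astrocytic replicate 2 (adjusted p = 0.037). Mcm2 gave 9.43, 9.44 and 9.47 against 9.52, 9.50 and 9.47, a difference of 0.05 ± 0.029 SE (adjusted p = 0.19). Mcm7 gave 10.47, 10.47 and 10.51 against 10.48, 10.50 and 10.50 (0.01 ± 0.028 SE, adjusted p = 0.81), and its sign turned with libraries set to a common median (-0.01). Mcm7 is uncertain because Cops6 (10.54 and 10.63 in the group means) and Ap4m1 (8.16 and 8.18), on the other strand, overlap its locus. The microRNA genes Mir25, Mir93 and Mir106b also lie there, but were listed at 0 or below. A contrast taken inside each library does not depend on the scaling. The mean log2 value of Mcm2, Mcm6 and Mcm7 exceeded that of Mcm3, Mcm4 and Mcm5 by 1.34, 1.40 and 1.34 with astrocytic apoE and by 1.56, 1.57 and 1.60 with microglial apoE. The groups did not overlap in this contrast, which was chosen after the values were seen and has no test. Mcm5, which fell, and Mcm6, which was not called, both carry the E2F matches printed above.

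**Figure D2:**
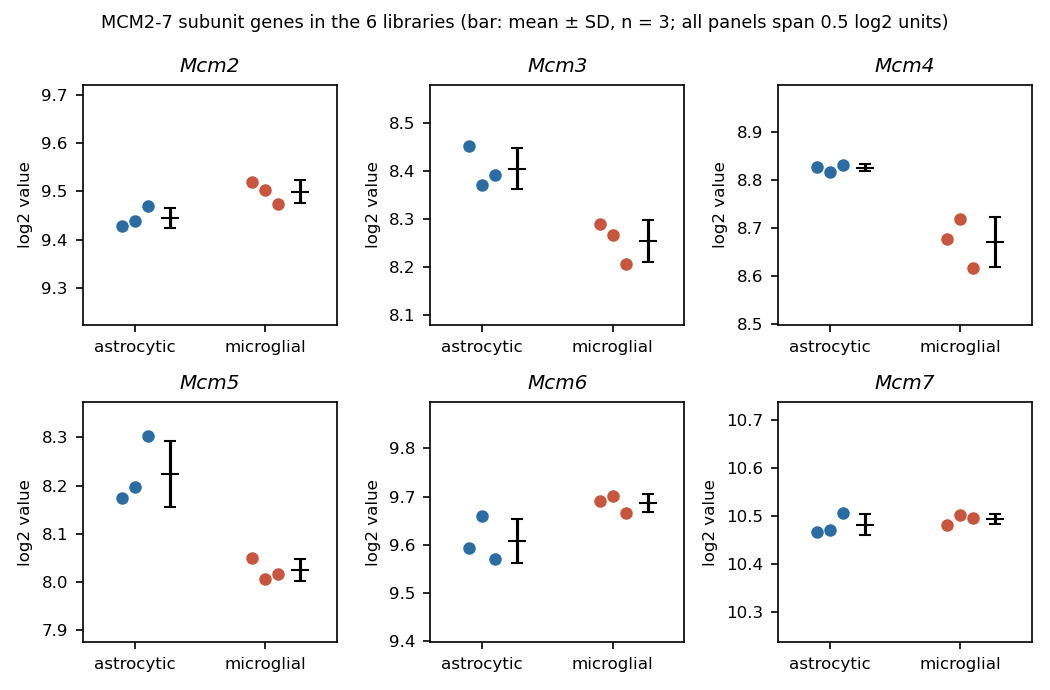
Log2 value of each MCM helicase gene in the 3 libraries per group (points, replicates 1 to 3 from left to right) with the mean and SD; every panel spans the same range of the log2 scale. Mcm3, Mcm4 and Mcm5 lie lower in every microglial library, and Mcm2 and Mcm6 lie higher.

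Of the 2 loaders of the helicase, Cdc6 fell and Cdt1 did not pass. Cdc6, an ATPase of the loading complex, stood at 5.08, 5.07 and 5.07 against 5.01, 5.03 and 4.98, without overlap, and fell by 0.06 (SE 0.018, adjusted p = 0.012). That call was lost without astrocytic replicate 1 (adjusted p = 0.052) and without microglial replicate 3 (adjusted p = 0.080), as well as in limma without its trend and robust options (adjusted p = 0.058). Cdt1, which brings the MCM ring to the origin, gave 7.21, 7.19 and 7.18 against 7.24, 7.21 and 7.19, with overlapping groups and a difference of 0.02 ± 0.028 SE (adjusted p = 0.65).

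Among the 6 genes that activate the loaded helicase, 4 fell and the log2 differences ran from -0.18 to -0.03. Mcm10, a scaffold of the firing origin that is no part of the ring, stood at 5.95, 5.98 and 5.97 against 5.80, 5.78 and 5.79, a gap far wider than either group (-0.18 ± 0.022 SE, adjusted p = 8.6e-07). Gins2, a GINS subunit, stood at 6.73, 6.77 and 6.77 against 6.59, 6.59 and 6.59 (-0.16 ± 0.025 SE, adjusted p = 2.2e-05). Cdc45, which joins MCM and GINS in the working helicase, fell by 0.11 (SE 0.024). The other GINS genes differed less: Gins4 fell by 0.08 (adjusted p = 0.046), a call lost without any 1 of the libraries astrocytic 1 and 2 and microglial 1 and 2 (adjusted p = 0.0760 to 0.22), and Gins3 had a difference of -0.04 (adjusted p = 0.22). Gins1 overlapped between groups, with 6.23, 6.21 and 6.29 against 6.21, 6.20 and 6.22 (-0.03 ± 0.025 SE, adjusted p = 0.35).

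The polymerase and primase genes were the most uniform. All 6 fell, with no overlap between groups in any of them, and their log2 differences spanned only -0.15 to -0.12. Over all genes tested, 11.8% were called lower and 18.8% had every microglial library below every astrocytic one. Pole, the catalytic subunit of the leading strand polymerase epsilon, stood at 6.94, 6.93 and 6.93 with astrocytic apoE and at 6.77, 6.80 and 6.78 with microglial apoE (-0.15 ± 0.026 SE, adjusted p = 1.2e-04). Pola2, a subunit of the polymerase alpha and primase complex that starts each strand, stood at 7.06, 7.06 and 7.04 against 6.92, 6.94 and 6.91 (-0.13 ± 0.026 SE, adjusted p = 6.4e-04). In both genes the gap between the groups was wider than the range within either. The primase subunit Prim1 had the weakest call, with 7.85, 7.96 and 7.94 against 7.76, 7.82 and 7.79 (-0.13 ± 0.032 SE, adjusted p = 0.0055), and it was lost without astrocytic replicate 2 (adjusted p = 0.054). Prim2 (-0.14 ± 0.034 SE), Pold1 of the lagging strand polymerase delta (-0.14 ± 0.028 SE) and Pola1, the catalytic subunit of polymerase alpha (-0.12 ± 0.031 SE), fell by like amounts.

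PCNA is the sliding clamp, and the RFC complex opens it and loads it on DNA. Pcna (chromosome 2, 132249162 to 132253314) had the highest level of the 39 genes, also per kilobase of exon, where it stood at 9.81 on the log2 scale with astrocytic apoE against 8.34 for Mcm7, the next. Its values were 11.06, 11.07 and 11.08 against 10.97, 10.99 and 10.95, without overlap, and it fell by 6.78% (-0.10 ± 0.027 SE, adjusted p = 0.0066). A processed copy, Pcna-ps2, was listed at 5.08 and 5.01 in the group means, so reads could be divided between them. Of the clamp loader, Rfc2 fell, from 9.55, 9.60 and 9.60 to 9.42, 9.46 and 9.47 (-0.13 ± 0.030 SE, adjusted p = 0.0016). Rfc3 overlapped between groups (8.41, 8.36 and 8.32 against 8.43, 8.36 and 8.38, difference 0.02 ± 0.032 SE, adjusted p = 0.62). The large subunit Rfc1 (-0.02, adjusted p = 0.61), Rfc4 (-0.06, adjusted p = 0.11) and Rfc5 (-0.06, adjusted p = 0.16) did not pass, although Rfc4 and Rfc5 lay lower in each microglial library and Rfc4 passed with libraries set to a common median (adjusted p = 0.036).

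At the end of the process, FEN1 trims the flaps of Okazaki fragments and DNA ligase I seals them. Lig1 stood at 8.08, 8.13 and 8.10 against 7.93, 7.96 and 7.93, and fell by 0.16 (SE 0.030, adjusted p = 1.7e-04). Fen1 was barely detected, at 3.62, 3.61 and 3.59 against 3.60, 3.57 and 3.60, and its difference of -0.02 ± 0.013 SE did not pass (adjusted p = 0.33). At such a level the deposited scale holds differences near 0, and Fen1 shares its locus with Tmem258 on the other strand (8.46 and 8.55 in the group means).

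E2F1 and E2F2 are activators of S phase genes, and cyclin E drives CDK2 at the start of S phase. The cyclin gene Ccne2 stood at 7.45, 7.50 and 7.46 against 7.29, 7.29 and 7.29, and fell by 11.7% (-0.18 ± 0.028 SE, adjusted p = 2.9e-05). Its paralog Ccne1 did not separate, with 7.27, 7.28 and 7.22 against 7.14, 7.20 and 7.24 (-0.07 ± 0.031 SE, adjusted p = 0.12, and 0.046 with libraries set to a common median). E2f1 stood at 7.15, 7.07 and 7.08 against 7.02, 7.02 and 7.0 and fell by 0.09 (SE 0.029, adjusted p = 0.029). This call rested on few libraries: it was lost without astrocytic replicate 1 or any 1 of the microglial replicates (adjusted p = 0.055 to 0.19). It was also lost at a common antilog sum (adjusted p = 0.065). E2f2, near the detection limit, had a difference of -0.03 (adjusted p = 0.12), although its groups did not overlap. It passed with libraries set to a common median (adjusted p = 0.015). It also passed with mitochondrial genes left out and the libraries rescaled to a common sum of the remaining antilogs (adjusted p = 0.033).

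The remaining members act on chromatin behind the fork. Uhrf1 (chromosome 17, 56303321 to 56323486), which reads hemimethylated CpG sites and brings in the maintenance methyltransferase, stood at 7.79, 7.76 and 7.87 with astrocytic apoE and at 7.52, 7.51 and 7.52 with microglial apoE. The microglial libraries were nearly identical (SD 0.00464, n = 3) and all lower, and Uhrf1 fell by 18.2% (-0.29 ± 0.031 SE, adjusted p = 7.6e-08). Chaf1a, the large subunit of chromatin assembly factor 1, which deposits histones on new DNA, stood at 6.76, 6.70 and 6.83 against 6.66, 6.65 and 6.65 (-0.11 ± 0.029 SE, adjusted p = 0.0060). Chaf1b, of the same complex, also lay lower in each microglial library, at 6.97, 7.06 and 7.03 against 6.95, 6.96 and 6.94, but did not pass (-0.07 ± 0.028 SE, adjusted p = 0.057), and it passed with libraries set to a common median (adjusted p = 0.017).

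Across the members, 28 had all microglial libraries below all astrocytic ones and 2 had them all above, where 18.8% and 20.1% of all genes tested did so. The mean log2 value of the 39 genes was 7.61, 7.61 and 7.62 in the astrocytic libraries and 7.51, 7.51 and 7.51 in the microglial ones, so no single library carried the pattern. Of the 20 members with no overlapping gene in the annotation 12 fell, as did 12 of the 19 with one. Some overlapping genes on the other strand stood higher than the member. With astrocytic apoE these included Eif4a2 at Rfc4 (mean 12.74), Wsb2 at Rfc5 (12.68), Ubxn6 at Chaf1a (10.48) and Ints8 at Ccne2 (9.40).

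**Figure D3:**
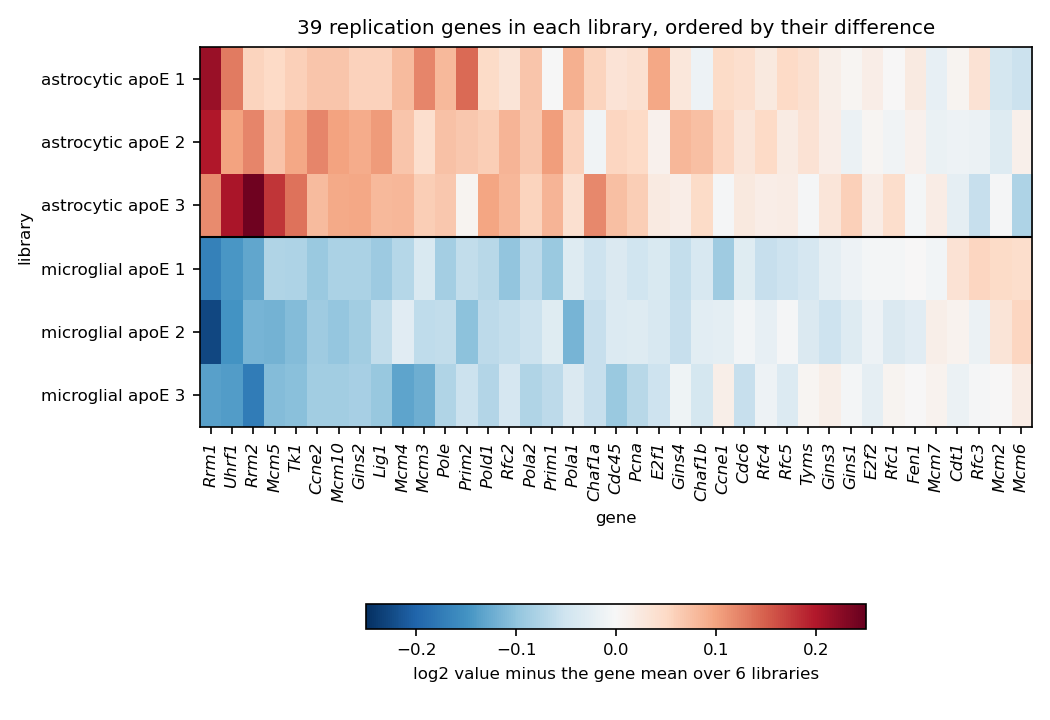
Log2 value of each gene minus its own mean over the 6 libraries (colour), with libraries in rows and genes ordered by their difference. Genes from Rrm1 to Cdc6 on the left are mostly red in the astrocytic rows and blue in the microglial rows, and Mcm2 and Mcm6 at the right end show the opposite order.

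The difference, taken with its sign, bore little relation to the level of the gene (across the 39 genes Pearson's r = -0.062 and Spearman's rho = -0.033). This is a description only, since the genes share their libraries, and the size without sign was not correlated. Members called lower had a median level of 7.74 and the other 15 a median of 7.20. Set beside all genes at the same level, the members under the 5th percentile were 0 of 2 at levels of 3.3 to 5, 1 of 3 at 5 to 6, 3 of 9 at 6 to 7 and 2 of 11 at 7 to 8. They were 6 of 7 at 8 to 9, 2 of 5 at 9 to 10 and 0 of 2 at 10 to 12. That percentile was -0.043 at the lowest levels and lay between -0.15 and -0.11 from 5 to 12.

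**Figure D4:**
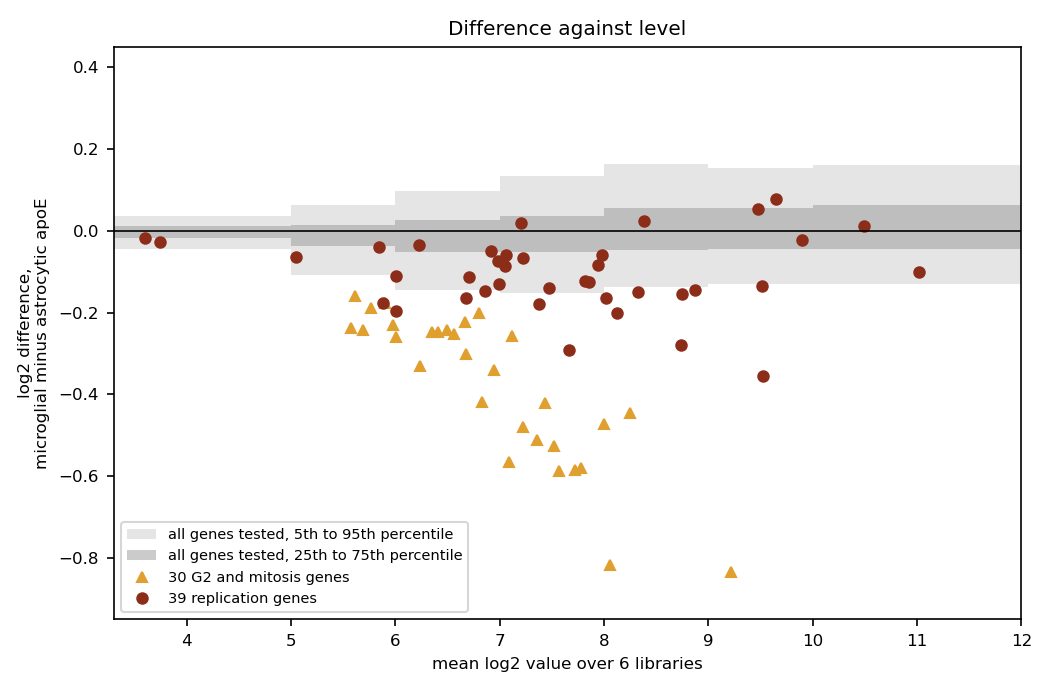
Log2 difference against the mean log2 value over the 6 libraries for the 39 replication genes (circles) and 30 G2 and mitosis genes (triangles), over bands for all genes tested at the same level. The circles lie mostly between 0 and -0.2, and the triangles lie lower, down to -0.83.

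Of 54 other genes of replication, listed by function, 13 fell and 5 rose, with a median of -0.032. These shares were 24.1% and 9.26%, beside 11.8% lower and 13.0% higher over all genes tested. The number that rose was 2 without astrocytic replicate 1 and 3 without astrocytic replicate 2, microglial replicate 2 or microglial replicate 3. Whether this list differs from the members was not tested. Clspn, which encodes the fork protein claspin (-0.17 ± 0.023 SE), geminin (Gmnn), the inhibitor of CDT1 (-0.15 ± 0.020 SE), and the histone chaperone gene Asf1b (-0.13 ± 0.023 SE) were among those that fell. By function, 3 of 15 origin genes fell and 1 rose, 6 of 21 fork genes fell and 0 rose (0 also at an unadjusted p under 0.05), and 2 fell and 2 rose both among 10 genes of nucleotide metabolism and among 8 of chromatin assembly. In the replication stress checkpoint list 9 of 19 tested genes fell and 0 rose (1 at an unadjusted p under 0.05), with a median of -0.059. They included the repair genes Brca1 (-0.21 ± 0.026 SE), Fanci (-0.14 ± 0.019 SE) and Exo1 (-0.08 ± 0.019 SE), and the count was 5 without microglial replicate 2.

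Of 29 genes of the E2F, RB and G1 list, upstream of S phase, 5 fell and 5 rose. That is 17.2% in each direction, near the 11.8% lower and 13.0% higher over all genes tested. The median of 0.00075 turned to -0.018 with libraries set to a common median, and 3 rose without astrocytic replicate 1. The inhibitor of cyclin-dependent kinases Cdkn1a rose by 0.38 (SE 0.028), Trp53, its activator, by 0.33 (SE 0.028) and cyclin D1 (Ccnd1) by 0.24 (SE 0.031), whereas the kinase inhibitor Cdkn2c fell by 0.28 (SE 0.029).

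The genes of the later cell cycle phases are the nearest relatives of the members. All 30 G2 and mitosis genes tested fell (0 rose, 0 also at an unadjusted p under 0.05), with differences from -0.83 to -0.16 and a median of -0.32, at a median level of 6.82 against 7.47 for the replication genes. Of the replication genes only Rrm1 lay below that median. The difference between these lists was not tested. Their promoters differed in the motifs they held. The E2F motif was in 1 of 25 G2 and mitosis genes with an entry, against 13 of 31 members. The CHR element, the site of the repressor complex of late cell cycle genes, searched as TTTGAA or TTCGAA on both strands, was in 20 of those 25 (80.0%), in 7 of 31 members (22.6%) and in 15.9% of the genes tested. The CCAAT box, searched as CCAAT on both strands, was in 20 of 25, 18 of 31 (58.1%) and 42.8%. Median GC content of the windows was 60.0% for the members and 60.7% for the genes tested. Among the members with an entry, 7 of 13 with an E2F match were called lower (median -0.064) and 10 of 18 without one (median -0.094). This difference was not tested, and 7 of the 8 members without an entry, all but Gins1, also fell. Of the 7 members with a CHR match 1 fell, Cdc45, and of the 24 without it 16 did. This split was not tested either, and all G2 and mitosis genes, most of them with a CHR match, fell.

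**Figure D5:**
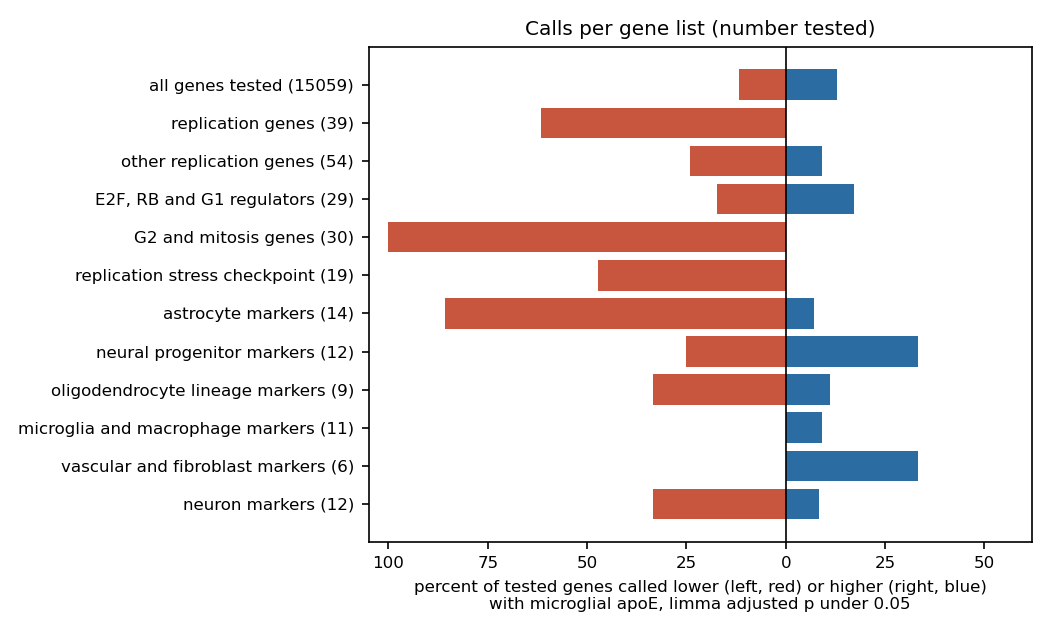
Percent of the tested genes of each list called lower (left) or higher (right) with microglial apoE in limma, with the number tested in parentheses. The replication genes, at 61.5% lower, stand between all genes tested, at 11.8%, and the G2 and mitosis genes, at 100%. The astrocyte markers, at 85.7% lower, also exceed the replication genes.

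Markers of other cells were present in the same libraries, and some moved with the replication genes. The counts of calls in each marker list stand beside 11.8% lower and 13.0% higher over all genes tested. The 15 astrocyte markers summed to 95419 to 95668 as antilogs with astrocytic apoE and to 80668 to 81132 with microglial apoE, 15.3% lower on average, and none was listed at 0 (exact permutation p = 0.1, two-sided, the smallest that 3 against 3 allows). Of 14 tested, 12 fell and 1 rose (2 rose without astrocytic replicate 3). Gfap differed by -1.08, Aqp4 by -0.41 and Aldoc by -0.56. Their levels were high, with group means (astrocytic, then microglial apoE) of 13.00 and 11.92 for Gfap, 13.29 and 12.87 for Aqp4, and 12.26 and 11.70 for Aldoc. Among 12 neural progenitor markers 3 fell and 4 rose, and their sums overlapped (33908 to 34752 against 34165 to 34869). The log2 differences of these 12 ran from -0.50 to 0.20, so the largest change was a fall. Of the first 3 listed, Nes rose by 0.18 and Sox2 by 0.16, and Pax6 differed by -0.02 (adjusted p = 0.68). Of 9 tested oligodendrocyte lineage markers 3 fell and 1 rose, with sums of 6506 to 6810 against 6612 to 6776. Of the first 3 listed, Pdgfra fell by 0.38, while Cspg4 (-0.03) and Olig1 (0.01) did not pass. Their part in the fall of the replication genes was not tested.

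Microglia and macrophage markers were low, with sums of 686 to 705 against 719 to 722 over 14 genes, and 0 of 11 tested fell (0 also at an unadjusted p under 0.05) while 1 rose. That rise was called neither at a common median nor in most other alternatives, including those without astrocytic replicate 1 or 2 or microglial replicate 1 or 3, and 4 rose at a common antilog sum. Aif1 stood at 3.99 and 3.98, Csf1r at 4.84 and 4.89, and Cx3cr1 at 4.76 and 4.77 in the group means. Of 6 tested vascular and fibroblast markers 0 fell (0 also at an unadjusted p under 0.05) and 2 rose (sums 925 to 945 against 952 to 970), or 1 without astrocytic replicate 1, without microglial replicate 2 or at a common median. The endothelial genes Cldn5 and Cdh5 were below 0 on the log2 scale, with Pecam1 at 3.28. Neuron markers were abundant, with Tubb3 at 12.92 and 12.94, and so were the astrocyte markers named above. Of 12 neuron markers tested, 4 fell and 1 rose, and their sums were 78760 to 79666 against 76996 to 77516, 2.42% lower. Without astrocytic replicate 2 the number that fell was 2. Map2 fell by 0.10 and Rbfox3 by 0.08. Transcripts of the mitochondrial genome made up 6.46% to 7.92% of the antilog sum with astrocytic and 5.71% to 5.77% with microglial apoE, a difference that moves with the groups. Its part in the results was not tested beyond the rescaling without those genes, under which 26 members were lower.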

How the data were processed

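Total RNA of 6 samples (3 per treatment) was sequenced on a DNBSEQ platform. The authors deposited a single log2 value per gene symbol and sample. FastQC, HISAT2, featureCounts, DESeq2 and the build GRCm38 are named, without roles, per the submitters' processing notes; no version, annotation or strand setting is given there. Of the symbols, 21031 were 0 in every library and 0 were 0 in only some, a property of a regularized logarithm, which is inferred from the values. Such values shrink the differences and the spread of weakly expressed genes, so their SEs may be too small and the fold changes are understated. Sequencing depth is unknown; the sum of antilogs (2 to the power of the value) was 18060473 to 18337624 per library. No 2 libraries were identical. Pairs of libraries differed by a median of 0.026 to 0.037 (absolute log2) when treated alike and by 0.043 to 0.056 otherwise.

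The values were fitted as they stand with limma 3.58.1 (R 4.3.3; trend and robust options), on all 15059 genes at 3.3 or more in 3 or more libraries, with Benjamini-Hochberg adjustment over all of them and a threshold of 0.05. The procedure was tested on simulated data. The members and the 10 other gene lists were chosen with earlier results of these data known. The rule for values per library took all MCM helicase genes and, per role, the 2 members with the smallest p and the one with the largest; Rrm2 is given in addition, after its values were seen. Of other lists up to 4 genes with the smallest p were named, of marker lists the first 3; some are not reported here. Overlaps and lengths (union of exons) come from GENCODE M21 on GRCm38, promoters from RefSeq on GRCm38.p6. Alternatives changed the scaling, the filter, the limma options, the replicate block or the set of libraries. Figures were drawn in Python 3.11.15 with matplotlib 3.10.9.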

Additional observations from a re-analysis of the deposited data

How the results depend on the processing

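The median log2 difference of the 39 replication genes was -0.11 as deposited, -0.13 with libraries set to a common median, -0.0957 at a common sum of antilogs, -0.12 with mitochondrial genes left out as well, and -0.12 at a filter of 50 on the antilog scale (36 genes). Without 1 library it ranged from -0.11 to -0.098. The members called lower numbered 22 to 28 over all alternatives, and 22 to 24 without 1 library; those called higher were 0, except 1 (Mcm6) at a common sum and 0 to 1 without 1 library. No member changed direction with a call. Over all genes tested, 2767 were lower at a common median against 1780 as deposited, and 1188 to 2167 were lower and 1368 to 2374 higher without 1 library. Of the other replication genes 5 rose as deposited, 2 at a common median, 8 at a common sum, 2 with mitochondrial genes left out as well and 2 to 6 without 1 library. In the E2F, RB and G1 list 3 to 4 rose without 1 library. In the checkpoint list 1 rose at a common sum, and 5 to 9 fell without 1 library. The rescalings shift every gene alike; the cause of the other changes was not tested. With the replicate block 23 members were lower, Gins4 being lost (adjusted p = 0.066), and 1609 genes were lower and 1779 higher in all. Deviations of same-numbered libraries correlated at 0.039, -0.12 and -0.19, so the numbers were not taken to pair the samples. Unknown depth limits what can be said of Fen1 and E2f2.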
